A study of Homo sapiens with 8 samples.

Results

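The genes described here are 33 genes of the response that the transcription factor ATF4 runs when amino acids are short or the endoplasmic reticulum is under stress. They were taken by symbol from a list of transcription regulators, serine and one-carbon enzymes, amino acid transporters and stress effectors. Each of the 33 symbols matched 1 of the 86369 Ensembl identifiers of the count table, and 29 were among the 13840 genes with enough counts to be tested. The 4 that were not tested are NUPR1, ALDH1L2, PCK2 and FGF21. The cells were HepG2, an established line from a hepatocellular carcinoma, grown in serum-supplemented DMEM. The siNAT10 group (4 libraries) had received a short interfering RNA against NAT10, an RNA cytidine acetyltransferase, and the siControl group (4 libraries) a negative control siRNA, both by lipofection, with RNA taken after 2 days. Replicates 1 and 2 of each group belong to batch 1 and replicates 3 and 4 to batch 2, and the labels do not say what a batch stands for. The labels give neither the siRNA sequences nor separate cultures for the replicates, so the p-values below measure the spread between these libraries, part of which may be technical.

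In this pathway a kinase phosphorylates the initiation factor eIF2 when a stress is sensed. GCN2 (gene EIF2AK4) does so when uncharged tRNA builds up, and PERK (EIF2AK3) when unfolded proteins fill the endoplasmic reticulum. General translation then slows, while the ATF4 mRNA is translated better because of short reading frames ahead of its coding sequence. ATF4 protein, paired with partners such as C/EBPγ (CEBPG), switches on genes for making and importing amino acids, and in longer stress also CHOP (DDIT3) and its targets. The mRNA level of ATF4 therefore reports only in part on its activity, and the mRNAs of its targets are the usual readout.

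ATF4 binds a C/EBP-ATF response element, and its core was looked for in the members' promoters. The motif searched was TGATGNAA on both strands, in RefSeq promoter windows (GRCh38.p14) from 250 bases before to 50 bases after each start site. Of the 27 members with an entry, 9 (33.3%) held at least 1 match, against 4.46% of the 27305 genes in the same table and 3.62% of its 35116 windows. The members were chosen as ATF4 pathway genes, so this share is a description and tests nothing, and most of them held no match. NUPR1, EIF4EBP1, PSPH, SHMT2, ALDH1L2 and PYCR1 had no entry. The 24 bases around the match are shown for 8 of the 9, read 5′ to 3′ on the strand that carries TGATGNAA, with the element in capitals; the match of SLC3A2 lies too near the end of its window for full flanks.
CHAC1: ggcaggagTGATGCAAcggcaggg
CEBPG: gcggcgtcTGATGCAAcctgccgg
PPP1R15B: gccccggcTGATGCAAcctcacgc
SLC1A5: gaagtggcTGATGCAAgctgtcca
FGF21: ctcctcccTGATGCAAtcctggtg
ASNS: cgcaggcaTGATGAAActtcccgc
SLC7A1: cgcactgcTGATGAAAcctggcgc
ATF3: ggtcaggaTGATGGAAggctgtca

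These stretches lie at chr15:40953254-40953277 for CHAC1, chr19:33374063-33374086 for CEBPG, chr1:204412029-204412052 for PPP1R15B and chr19:46784896-46784919 for SLC1A5. Those of FGF21, ASNS, SLC7A1 and ATF3 lie at chr19:48755462-48755485, chr7:97872461-97872484, chr13:29595666-29595689 and chr1:212565208-212565231. The element is on the strand of the gene in 6 of them and on the other strand in CHAC1 and FGF21. Lying 68 bases ahead of the start site, the ASNS element is the amino acid response element in which ATF4 binding is best known. A match is a description of the letters and not a measured binding site.

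The libraries held between 9731718 and 27977110 counts, and the 33 members took between 0.597% and 0.651% of them. NAT10, the targeted gene, stood at 52.6 ± 17.2 CPM (a library's counts scaled to 1000000) in siControl and 16.9 ± 5.04 CPM in siNAT10 (SD, n = 4 each), and its fitted log2 ratio of siNAT10 to siControl (the log2 fold change), from a model with batch as a term, was -1.66 (edgeR adjusted p 2.0e-05; 0.086 in batch 2 alone). Of the 8 tested hepatocyte markers 1 was called, TF, against 2.28% of all tested genes. TF fell from 2086 ± 249.8 to 1474 ± 114 CPM (SD, n = 4; log2 ratio -0.49, edgeR adjusted p 0.023). The list median was -0.29, with 6 fitted values below 0 and 2 above. An unadjusted edgeR p under 0.05 was reached by 5 of the 8, 4 lower and 1 higher, against 15.7% of all tested genes. In 3 of the 8 the groups lay fully apart, against 5.4% of all tested genes. AFP had a log2 ratio of -0.28 (edgeR adjusted p 0.19) and TTR one of -0.30 (edgeR adjusted p 0.17). FGB had 90.3 ± 10.4 CPM in siControl and 117 ± 22.8 CPM in siNAT10 (SD, n = 4; log2 ratio 0.37, edgeR adjusted p 0.17). APOA1 had a log2 ratio of -0.0083. ALB ran from 4266 to 4627 CPM in siControl and from 3232 to 3644 CPM in siNAT10 (log2 ratio -0.37, edgeR adjusted p 0.072; called in DESeq2), while HNF4A ran from 242 to 476 CPM in both groups together. APOB, also a defining hepatocyte gene, was at or under 0.328 CPM in every library, and SERPINA1 between 1.70 and 13.2 CPM. Of the blood, endothelial and fibroblast markers, PTPRC, HBB, COL1A2 and COL3A1 had no count in any library. PECAM1, VWF, CDH5 and COL1A1 had a few counts, at or under 0.650 CPM in every library, and PDGFRB ran from 0.293 to 1.27 CPM. LYZ, listed as a blood marker, fell from 405 to 552 CPM in siControl to 330.3 to 385 CPM in siNAT10 (log2 ratio -0.42, edgeR adjusted p 0.043). The part of these differences in the members' values was not tested.

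None of the tested ATF4 pathway genes was called changed by NAT10 knockdown. At an adjusted p under 0.05, 0 of 29 members were called in edgeR's quasi-likelihood test, where 2.28% of the 13840 tested genes were called (315 genes, 113 higher and 202 lower; 138 higher and 149 lower with library size alone as the scale). The shares by direction were 0.816% higher and 1.46% lower. DESeq2 called 0 of the 28 to which it gave an adjusted p (all but SESN2), against 4.98% of the 11550 genes it gave an adjusted p. In bulk RNA, a lower level in each cell and fewer cells carrying a transcript cannot be told apart. An unadjusted edgeR p under 0.05 was reached by 6 of the 29 members, against 15.7% of all tested genes, so the count was near the share over all. These were XPOT, EIF2AK4, SLC7A5, SLC3A2 and VLDLR with higher fitted values in siNAT10 and CHAC1 with a lower one. The median fitted log2 ratio of the 29 was -0.04, and that of all tested genes was -0.0024. Fitted values were above 0 for 12 members and below 0 for 17, and ran from -0.44 for CHAC1 to 0.52 for SESN2.

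The precision behind these values differed between members. For 28 of the 29 the whole 95% interval of the log2 ratio lay within 1 of 0, so that a 2-fold change in either direction is outside it. The exception was SESN2, counted only 133 times over the 8 libraries, with an interval from -0.33 to 1.38. In simulated data with the spread of these libraries the test called 72% of 50 genes changed by a log2 fold of 1 and 46% of 50 changed by 0.6, but 6% of 50 changed by 0.3. It also made 14 false calls among the unchanged genes of the 13613 run. Correct calls numbered 3, 23, 36 and 47 at log2 folds of 0.3, 0.6, 1 and 2. The median size of the members' fitted log2 ratios was 0.14 (0.16 over all tested genes), under the smallest change simulated.

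**Figure D1:**
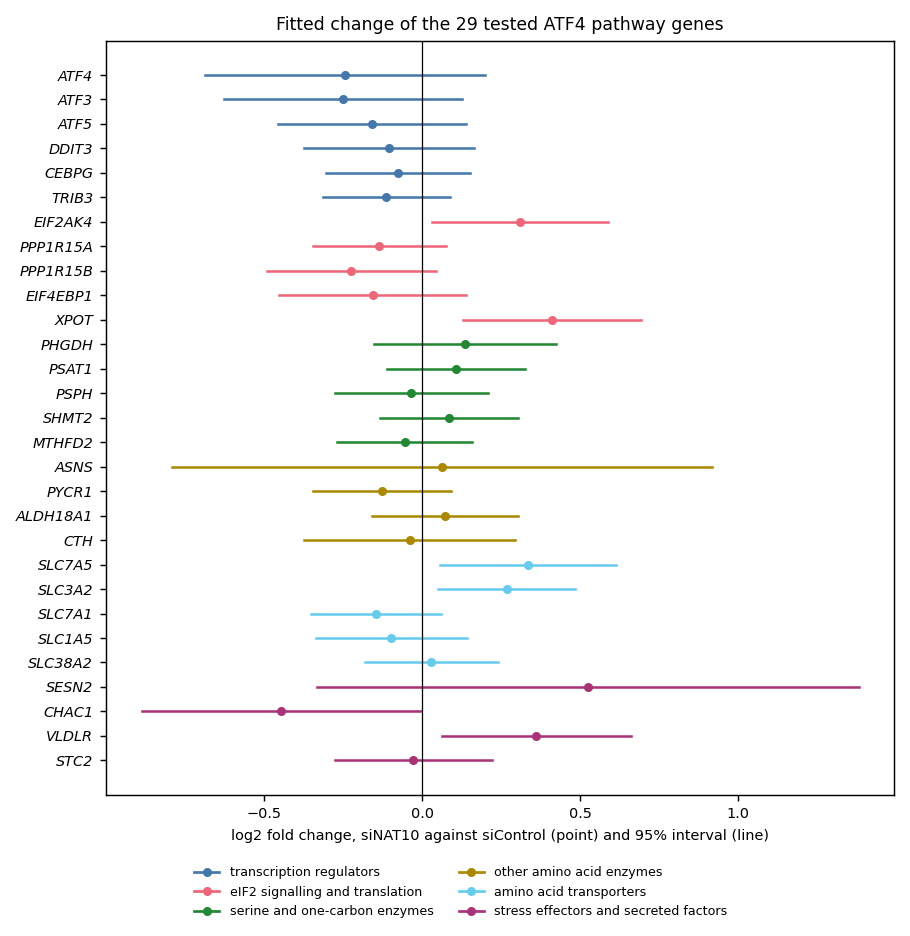
Fitted log2 ratio of each tested member (point) with its 95% interval (line), siNAT10 against siControl with batch in the model, coloured by role. Intervals of XPOT, EIF2AK4, SLC7A5, SLC3A2 and VLDLR lie above 0 and that of CHAC1 just below 0 before any adjustment, those of SESN2 and ASNS are the widest, and all 6 transcription regulators have points left of 0.

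Among the transcription regulators, all 6 tested members had fitted values below 0 and none passed. ATF4 (ENSG00000128272; GRCh38 chromosome 22, 39519695 to 39522683, plus strand) was one of the most abundant members. It had 777, 561, 1259.6 and 553 CPM in siControl replicates 1 to 4 and 632, 732, 758 and 509 CPM in siNAT10 replicates 1 to 4. The groups overlapped, and siControl replicate 3 lay far above the other 7 libraries. The fitted log2 ratio was -0.24 (SE 0.21, edgeR adjusted p 0.63), and it was 0.10 without siControl replicate 3. Batch 1 alone gave a log2 ratio of 0.031 and batch 2 alone one of -0.52.

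DDIT3 encodes CHOP, the factor tied to cell death in prolonged stress. Its values were 72.5, 54.6, 40.7 and 31.6 CPM in siControl and 64.8, 70.0, 30.0 and 28.4 CPM in siNAT10. Libraries of batch 2 were all below those of batch 1. In batch 1 the siNAT10 values lay between the siControl values, and in batch 2 both lay below both siControl values. The fitted log2 ratio was -0.10 (95% interval -0.37 to 0.16, edgeR adjusted p 0.75), with opposite signs in batch 1 (0.09) and batch 2 (-0.31). The 3′ end of DDIT3 is shared with an exon of MARS1 on the opposite strand, which was counted at 77.8 to 168 CPM, so the DDIT3 count is uncertain to the extent that strand was not used in counting.

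TRIB3, a pseudokinase that is induced by ATF4 and CHOP and in turn restrains ATF4, was the regulator with the narrowest interval. It had 349.5, 332, 267 and 300.4 CPM in siControl and 304, 328, 261 and 262 CPM in siNAT10. Both siNAT10 libraries lay below both siControl libraries in each batch, by small margins. Its log2 ratio was -0.11 (95% interval -0.31 to 0.09, edgeR adjusted p 0.63).

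ATF3, another stress-induced factor, was low, at 9.20 to 24.2 CPM over the 8 libraries, with a fitted log2 ratio of -0.25 (edgeR adjusted p 0.54). ATF5, which like ATF4 is controlled by upstream reading frames, differed far more between batches than between groups. Its batch 1 libraries had 37.0 and 41.1 CPM (siControl) and 44.1 and 31.5 CPM (siNAT10), and its batch 2 libraries 129 and 109 CPM (siControl) and 120.1 and 77.8 CPM (siNAT10). The log2 ratio of ATF5 for the siRNA was -0.16 (edgeR adjusted p 0.64). CEBPG, the ATF4 partner, was steady between 32.8 and 43.1 CPM, with a log2 ratio of -0.08 (edgeR adjusted p 0.79). NUPR1, a small stress-induced chromatin protein, was close to undetected with 19 counts over the 8 libraries.

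Of the 5 members that act on eIF2 and translation none passed, and XPOT had the lowest p of all members. XPOT (ENSG00000184575; chromosome 12, 64404392 to 64451125, plus strand) encodes exportin-t, which carries tRNA out of the nucleus. It had 50.2, 73.2, 50.04 and 69.8 CPM in siControl and 88.7, 92.1, 70.2 and 73.1 CPM in siNAT10. In batch 1 both siNAT10 libraries were clearly above both siControl libraries, and in batch 2 they were above siControl replicate 3 but barely above siControl replicate 4. The fitted log2 ratio was 0.41 (SE 0.13), a ratio of 1.33 (95% interval 1.09 to 1.62). Its unadjusted edgeR p was 0.0070 and its adjusted p 0.12, over the threshold. XPOT passed in 2 of the other fits, with an adjusted p of 0.038 when no filter on low counts was used and 0.049 without siControl replicate 4, and the replicate block gave 0.051.

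EIF2AK4 (ENSG00000128829; chromosome 15, 39934115 to 40035591, plus strand) encodes GCN2, the kinase that senses uncharged tRNA. Its values were 47.1, 54.6, 41.5 and 56.3 CPM in siControl and 62.1, 56.7, 52.3 and 76.4 CPM in siNAT10. The siNAT10 libraries were the higher ones of batch 1, whereas in batch 2 siNAT10 replicate 3 lay below siControl replicate 4. The fit gave a log2 ratio of 0.31 (95% interval 0.03 to 0.59) and the edgeR adjusted p 0.26. Without siNAT10 replicate 4 it was 0.18.

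PPP1R15A and PPP1R15B encode GADD34 and CReP, the inducible and the constitutive subunits that bring a phosphatase to eIF2 and end the response. PPP1R15A had 56.8, 58.6, 32.9 and 30.5 CPM in siControl and 52.2, 58.2, 26.6 and 28.1 CPM in siNAT10, so that it was split by batch and not by siRNA. Its log2 ratio was -0.14 (edgeR adjusted p 0.56). PPP1R15B lay between 15.8 and 25.1 CPM with a log2 ratio of -0.22 (95% interval -0.49 to 0.04, edgeR adjusted p 0.42). EIF4EBP1, which encodes the translation repressor 4E-BP1, ranged from 42.6 to 66.2 CPM with a log2 ratio of -0.16 (edgeR adjusted p 0.64), and 0.0039 without siControl replicate 3.

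**Figure D2:**
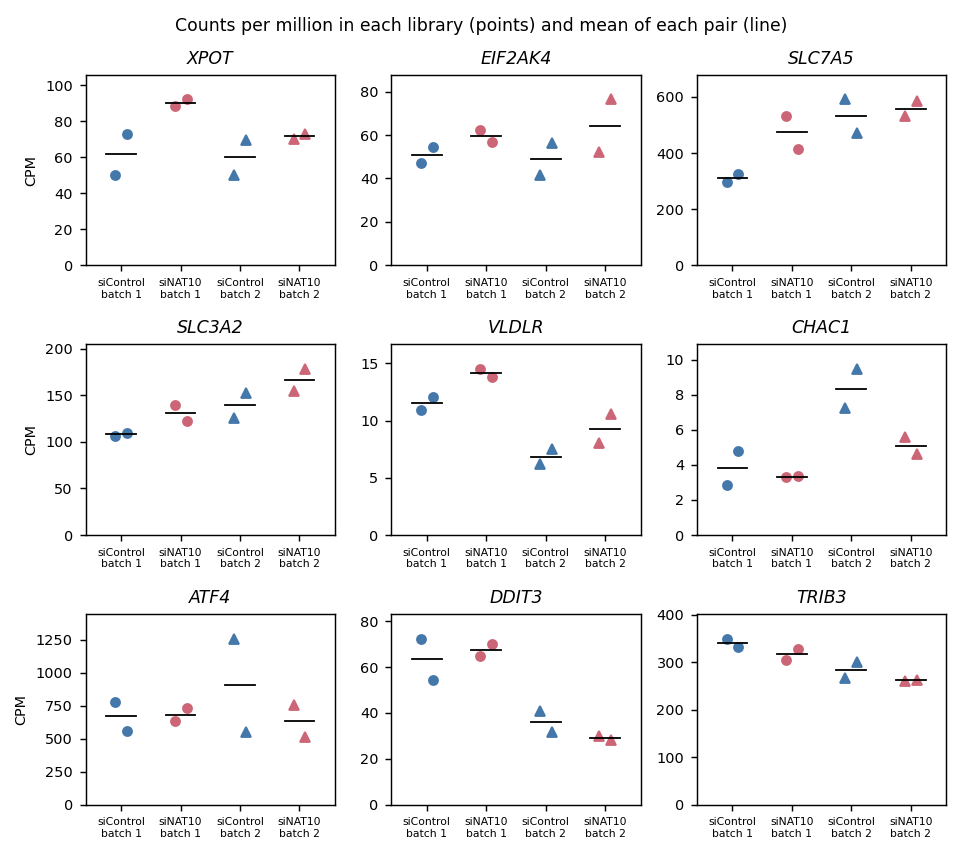
CPM of 9 members in each library (circles batch 1, triangles batch 2; blue siControl, red siNAT10), with the mean of each pair as a line and every axis from 0. XPOT, SLC3A2 and VLDLR have both siNAT10 points above both siControl points in each batch, SLC7A5 in batch 1 only, and DDIT3 is ordered by batch.

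The serine and one-carbon enzymes, which make serine and glycine from a glycolytic intermediate and charge folate with one-carbon units in mitochondria, all stayed short of the threshold. The 5 tested members had log2 ratios between -0.06 and 0.14 and edgeR adjusted p-values from 0.67 up. PHGDH, the first enzyme of serine synthesis, had 39.7, 31.3, 37.1 and 33.9 CPM in siControl and 33.2, 43.0, 48.2 and 31.7 CPM in siNAT10. Within either batch a single siNAT10 library was above both siControl libraries and its partner was not, and the log2 ratio was 0.14 (95% interval -0.15 to 0.43).

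PSAT1, the transaminase of the next step, had a log2 ratio of 0.11 with 26.9 to 38.0 CPM over the libraries, and PSPH, the phosphatase that yields serine, -0.03 with 85.9 to 116 CPM. SHMT2, which converts serine to glycine in mitochondria, was the most abundant of these enzymes at 210.0 to 302 CPM, with a log2 ratio of 0.09 (95% interval -0.13 to 0.30). NDUFA4L2 overlaps its 3′ end from the opposite strand and was counted at up to 4.65 CPM. MTHFD2, the mitochondrial folate dehydrogenase that is a standard ATF4 target, had 163, 177, 135 and 158 CPM in siControl and 147, 172, 139 and 150.0 CPM in siNAT10. Its groups overlapped in both batches, and its log2 ratio was -0.06 (95% interval -0.27 to 0.16). ALDH1L2, a mitochondrial folate enzyme, had 24 counts over all 8 libraries and was not tested.

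Of the other amino acid enzymes none passed either. PYCR1, which makes proline, was among the most abundant members. It had 784, 948, 796 and 778 CPM in siControl and 831, 725, 759 and 711 CPM in siNAT10, with siControl replicate 2 the highest of all. Its fitted log2 ratio was -0.13 (95% interval -0.35 to 0.09, edgeR adjusted p 0.61). ALDH18A1, the enzyme before PYCR1 in proline synthesis, had 161 to 229.7 CPM and a log2 ratio of 0.07. CTH, which makes cysteine from cystathionine, had 8.16 to 12.8 CPM and a log2 ratio of -0.04.

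ASNS, asparagine synthetase and the textbook target of ATF4, was counted only 319 times over the 8 libraries. Its values were 2.40, 2.01, 1.17 and 3.03 CPM in siControl and 2.57, 1.91, 0.627 and 4.01 CPM in siNAT10, which places its mean at the 19.4th percentile of tested genes. The log2 ratio was 0.06 with an interval from -0.79 to 0.92, and siNAT10 libraries held both the lowest and the highest value. A non-coding gene on the same strand (ENSG00000284707) has an exon over the 3′ end of ASNS and held 353 counts, and how the counting shared reads between both is not stated. PCK2, the mitochondrial phosphoenolpyruvate carboxykinase, had 0 counts in every library, which allows at most 0.104 to 0.293 CPM per library (3 counts, counting error only). Genes that dividing cells use were also at or near 0 in this table: IARS1, an aminoacyl-tRNA synthetase, had 1 count in all, GCSH, of the glycine cleavage system, had 0, and MAT2A, which makes S-adenosylmethionine, had 0.243 to 2.64 CPM. A value near 0 here therefore does not show that the transcript was absent.

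Annotation bears on such low values. No other GENCODE 44 exon lay over the last 500 bases of the last exon of PCK2, NUPR1 or SESN2. However, 24911 identifiers of the count table are not in GENCODE 44, so the authors counted against another release, and whether one of those genes takes the reads of these members was not tested. For 8 members GENCODE lists pseudogenes of their name, among them ATF4, ASNS, PSAT1, MTHFD2 and SLC7A5. The 24 pseudogenes in the table held 1 count between them, and any reads lost because they map to both copies could not be seen.

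Of the 5 amino acid transporters none passed, with fitted log2 ratios from -0.15 to 0.34. SLC7A5 (ENSG00000103257; chromosome 16, 87830023 to 87869507, minus strand) and SLC3A2 (ENSG00000168003; chromosome 11, 62856004 to 62888880, plus strand) encode the light and heavy chains of LAT1, the exchanger that brings leucine into the cell. SLC3A2 had 106, 110.0, 126 and 153 CPM in siControl and 139.7, 122, 155 and 178 CPM in siNAT10. Each siNAT10 library was above both siControl libraries of its batch, though the groups as a whole overlapped. The log2 ratio was 0.27 (SE 0.10, edgeR unadjusted p 0.019, adjusted p 0.20), 0.28 in batch 1 and 0.26 in batch 2.

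SLC7A5 had 298, 327, 590.5 and 470.0 CPM in siControl and 533, 414, 530.1 and 585 CPM in siNAT10. The 2 siControl libraries of batch 1 were the lowest of the 8, and in batch 2 the groups were intermixed. A log2 ratio of 0.34 (SE 0.13, edgeR unadjusted p 0.021, adjusted p 0.21) was fitted. It was 0.60 in batch 1 alone (edgeR adjusted p 0.055) and 0.08 in batch 2 alone (adjusted p 0.95), and 0.21 without siNAT10 replicate 1.

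The fitted log2 ratios of the remaining transporters lay between -0.15 and 0.03. SLC1A5, the neutral amino acid transporter that carries glutamine, had 484, 561, 934 and 991 CPM in siControl and 542, 474, 988 and 743 CPM in siNAT10. All batch 2 libraries were above all batch 1 libraries, and its log2 ratio for the siRNA was -0.10 (edgeR adjusted p 0.74). SLC38A2, the sodium-coupled transporter SNAT2 that is induced by amino acid lack, had 672, 558, 432 and 453 CPM in siControl and 624, 599, 451 and 478 CPM in siNAT10. The groups were level within each batch, with a log2 ratio of 0.03 (95% interval -0.18 to 0.24). SLC7A1, the arginine and lysine transporter CAT1, had 60.8 to 79.8 CPM and a log2 ratio of -0.15 (edgeR adjusted p 0.51).

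Of the 4 tested stress effectors and secreted factors none passed, with fitted log2 ratios from -0.44 to 0.52. CHAC1 (ENSG00000128965; chromosome 15, 40952962 to 40956512, plus strand), an enzyme that breaks down glutathione and a sensitive ATF4 target, had 2.87, 4.77, 7.21 and 9.47 CPM in siControl and 3.28, 3.34, 5.57 and 4.60 CPM in siNAT10. Both siNAT10 libraries were below both siControl libraries in batch 2, while in batch 1 they lay between them. Its fitted log2 ratio was -0.44 (SE 0.21, 95% interval -0.89 to -0.0029, edgeR unadjusted p 0.049, adjusted p 0.31). Only 721 counts over the 8 libraries lie behind it.

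VLDLR, a lipoprotein receptor that ATF4 induces in liver cells, had 10.9, 12.1, 6.18 and 7.51 CPM in siControl and 14.5, 13.8, 8.00 and 10.6 CPM in siNAT10. Every siNAT10 library was above both siControl libraries of its batch. The log2 ratio was 0.36 (SE 0.14, edgeR unadjusted p 0.021, adjusted p 0.21), 0.30 in batch 1 and 0.44 in batch 2. SESN2, a leucine sensor of the mTORC1 pathway, had 0.438 to 1.49 CPM and a log2 ratio of 0.52 (SE 0.40, edgeR adjusted p 0.58).

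STC2, the secreted stanniocalcin 2, was the most abundant member, in the 99.3rd percentile of tested genes. A QuantSeq count comes from the 3′ end and does not grow with transcript length. Reads shared with other genes or lost in counting can still differ between genes, so this rank holds only for the counts as deposited. STC2 had 1175, 1219, 1239.9 and 1543 CPM in siControl and 1431, 1079.6, 1265 and 1289 CPM in siNAT10. The groups overlapped, and the log2 ratio was -0.03 (95% interval -0.27 to 0.22, edgeR adjusted p 0.94). FGF21, a hormone that stressed liver secretes, had 1 count in all and was not tested.

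Across the libraries the batch ordered more members than the siRNA did, as it also did over all tested genes. In 0 of 29 members did the 4 siNAT10 libraries lie apart from the 4 siControl libraries, against 5.4% of all tested genes. Every siNAT10 library lay beyond both siControl libraries of its own batch, in 1 direction, for 4 members, against 14.7% of all tested genes: XPOT, SLC3A2 and VLDLR higher and TRIB3 lower. The 4 libraries of batch 2 lay apart from the 4 of batch 1 in 9 of 29 members, against 22.7% of all tested genes. ATF5, PSAT1 and SLC1A5 were higher in batch 2, and DDIT3, TRIB3, PPP1R15A, SHMT2, SLC38A2 and VLDLR were lower there.

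The ratios of the batch means, a description with no test, were largest for ATF5 at 2.84, from 38.4 to 109 CPM. CHAC1 followed at 1.88, from 3.57 to 6.71 CPM, and then SLC1A5 at 1.77, from 515 to 914 CPM. DDIT3 and PPP1R15A were at 0.499 and 0.523 of their batch 1 means. The pathway did not shift as one between batches: CHOP and the eIF2 phosphatase subunit GADD34 were lower in batch 2, while ATF5 and the glutamine transporter were higher.

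**Figure D3:**
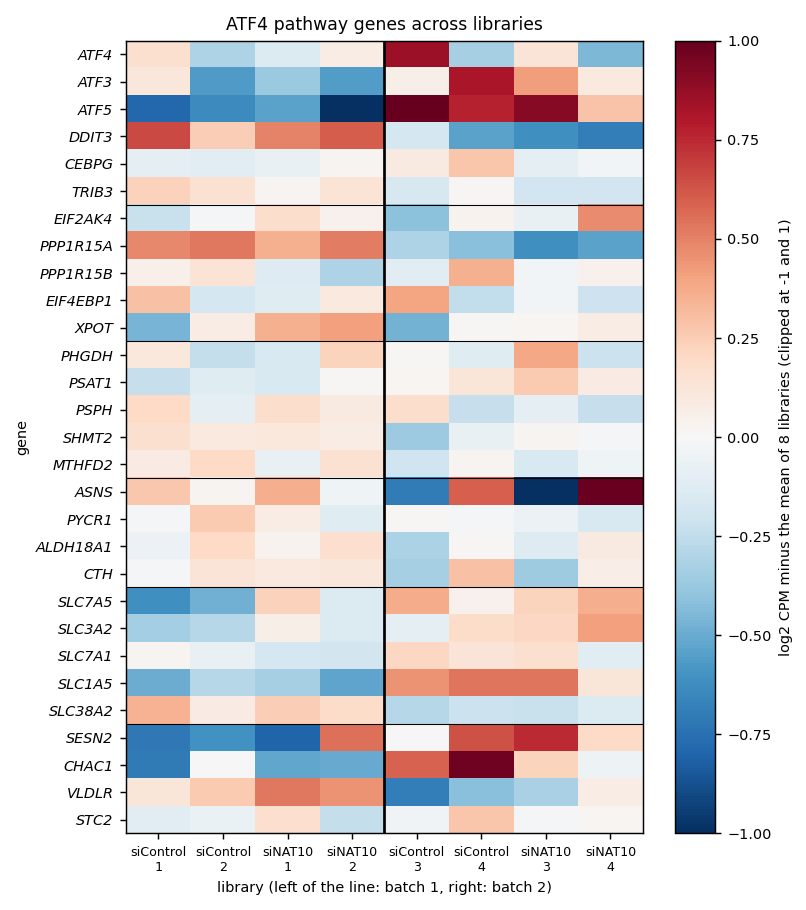
Log2 CPM of the 29 tested members in each library, minus the gene's mean over the 8 libraries, with roles separated by thin lines and batches by the thick line. The ATF5 and SLC1A5 rows change from blue to red across the batch line, the DDIT3 and PPP1R15A rows from red to blue, and no row is divided by siRNA in the same way.

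The siRNA effect was also compared between batches with an interaction term in the model. It was called for 0 of 13840 genes in edgeR (0% of those tested; 1 in DESeq2), and 3.04% of them had an unadjusted p under 0.05. Of the members only SLC7A5 had an unadjusted interaction p under 0.05 (edgeR unadjusted p 0.043, adjusted p 1.00). The median log2 ratio of the members was 0.027 in batch 1 and -0.11 in batch 2. For the 6 transcription regulators it was -0.0092 and -0.25. All 6 were negative in batch 2, and the difference between the batches was not tested for the group. In the fit without siControl replicate 3, which carried the high ATF4 value, ATF4 was at 0.10 and DDIT3 at 0.018. ATF3, TRIB3, ATF5 and CEBPG stayed negative in that fit, at -0.39, -0.14, -0.08 and -0.07.

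**Figure D4:**
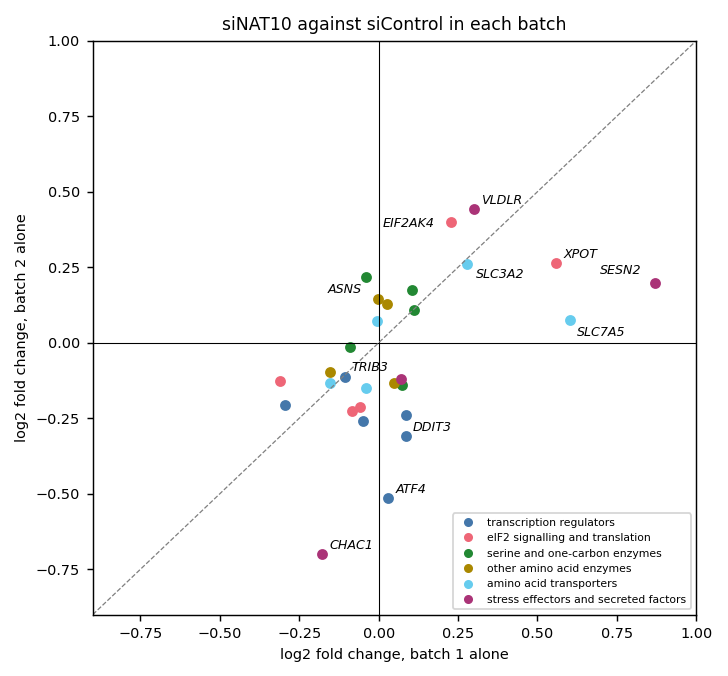
Log2 fold change of each tested member in batch 1 alone (x) and batch 2 alone (y), with the dashed line marking equal values. VLDLR, EIF2AK4, SLC3A2, XPOT and SESN2 are positive in both, SLC7A5 lies near 0.08 in batch 2, and ATF4 and DDIT3 are near 0 in batch 1 and negative in batch 2.

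The other genes of the pathway were read from lists of related genes. Of the 15 remaining eIF2 kinases and initiation factors, 0 were called (2.28% of all tested genes), with a median log2 ratio of 0.017. An unadjusted edgeR p under 0.05 was reached by 2 (15.7% of all tested genes). DESeq2 called 1, EIF2AK3 (4.98% of its genes). EIF2AK3, the gene of the kinase PERK, had 30.6, 33.3, 30.5 and 38.9 CPM in siControl and 40.8, 36.5, 43.6 and 57.6 CPM in siNAT10. Its siNAT10 libraries were the higher ones in each batch, with a log2 ratio of 0.41 (SE 0.12, edgeR adjusted p 0.094, DESeq2 adjusted p 0.047). EIF2S3, the gamma subunit of eIF2, had a log2 ratio of -0.26 (edgeR adjusted p 0.27).

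Of 31 tested further ATF4 targets, among them cytosolic aminoacyl-tRNA synthetases, 2 were called in edgeR (2.28% of all tested genes), both lower, with a list median of -0.06. DESeq2 called 4 (4.98% of its genes): these 2, VEGFA with a lower value (log2 ratio -0.40, DESeq2 adjusted p 0.030) and BCAT1 with a higher one (0.34, DESeq2 adjusted p 0.048). TXNIP, the thioredoxin inhibitor, fell from 139 ± 19.2 to 89.8 ± 16.3 CPM (SD, n = 4), a log2 ratio of -0.63 (edgeR adjusted p 0.022). GOT1, the cytosolic aspartate aminotransferase, fell from 243 ± 43.2 to 164 ± 22.9 CPM (SD, n = 4), a log2 ratio of -0.57 (edgeR adjusted p 0.036). In fits that left out 1 library TXNIP was called in 3 of 8 and GOT1 in 2 of 8, with edgeR adjusted p-values up to 0.087 and 0.14.

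The one-carbon and glycine genes outside the ATF4 list held 3 called genes of 14 tested (2.28% of all tested genes; 3 in DESeq2), with a list median of -0.10; its difference from the serine enzymes was not tested. SARDH, which demethylates sarcosine to glycine, fell from 18.9, 19.4, 19.7 and 20.1 CPM in siControl to 9.69, 12.5, 11.4 and 6.94 CPM in siNAT10. The groups were far apart in both batches, with a log2 ratio of -0.93 (SE 0.15, edgeR adjusted p 0.0048), and it stayed called in each of the 8 fits without 1 library. GLDC, the glycine-cleaving decarboxylase, rose from 9.46 ± 1.45 to 14.4 ± 1.71 CPM (SD, n = 4; log2 ratio 0.60, edgeR adjusted p 0.024). FTCD, which feeds one-carbon units from histidine breakdown into folate, rose from 60.1 ± 16.7 to 80.2 ± 13.5 CPM (SD, n = 4; log2 ratio 0.44, edgeR adjusted p 0.036). GLDC and FTCD were each called in only 2 of the 8 fits that left out 1 library, with edgeR adjusted p-values up to 0.094 and 0.13. In batch 2 alone, or with batch dropped from the model, none of the 6 genes called in these further lists (TXNIP, GOT1, SARDH, GLDC, FTCD and MANF) passed, and the edgeR adjusted p of SARDH with batch dropped was 0.0998.

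Of 15 tested further amino acid transporters 0 were called (2.28% of all tested genes), and 0 in DESeq2 (4.98% of its genes), with a median of 0.15. An unadjusted edgeR p under 0.05 was reached by 3 (15.7% of all tested genes). SLC6A6, the taurine transporter, had a log2 ratio of 0.34 (edgeR adjusted p 0.13), and SLC7A11, the cystine transporter that also pairs with SLC3A2, 0.39 (edgeR adjusted p 0.14). The endoplasmic reticulum stress genes outside the ATF4 arm had 1 called gene of 16 (2.28% of all tested genes; 1 in DESeq2) and a median of 0.10. MANF, a secreted chaperone of the reticulum, rose from 218 ± 17.2 to 294 ± 29.3 CPM (SD, n = 4), a log2 ratio of 0.43 (edgeR adjusted p 0.036), and was called in 1 of the 8 fits without 1 library.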

How the data were processed

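RNA 3′ ends were measured in 8 HepG2 libraries with a Lexogen QuantSeq kit, named FWD in the series text and REV in the sample protocols. Deposited was a matrix of raw counts by Ensembl gene, made by the authors, per the submitters' processing notes, with Trim Galore 0.6.10, cutadapt 3.5, STAR 2.7.9a on GRCh38 and featureCounts. The annotation release, strand setting and treatment of multi-mapping reads are not given in the sources used here. Symbols, coordinates and overlaps came from GENCODE 44 on GRCh38, which held 61458 of the 86369 identifiers. Columns were matched through the sample descriptions.

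The test was that of edgeR 4.0.16 (R 4.3.3): filterByExpr (minimum count 10), TMM scaling, the quasi-likelihood F test with batch and siRNA as additive terms, and Benjamini-Hochberg adjustment over the 13840 genes kept, called under 0.05. Standard errors and 95% intervals were taken from the F statistic, and CPM from the TMM-scaled library sizes. The test was checked on simulated data over 13613 genes. The members and lists were chosen with earlier results of these data known. All members are named, with NAT10 and, of each further list, the called genes or, where there were none, the 2 with the lowest p; VEGFA, BCAT1, IARS1, GCSH, MAT2A and the cell type markers were named after their values were seen. Alternatives were no batch term, a replicate block, DESeq2 1.42.0, RLE or no scaling factors, 2 other filters, each batch alone, thinning to the smallest library and leaving out each library. Same-numbered libraries deviated together from their group means across genes (correlations of 0.39, 0.38, 0.45 and 0.36 for replicates 1 to 4). These libraries share a batch and the means ran over both batches, so the correlations include the batch difference and cannot show pairing. The replicate block is given only as an alternative fit. Libraries of 1 group and batch differed beyond counting noise (chi-square per degree of freedom 15.2 to 24.4), so all 8 were kept apart.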

Additional observations from a re-analysis of the deposited data

Results flagged for a closer look

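In each group of 4 libraries it was examined whether the highest or lowest value of a member stood apart by most of the group's range. Of 58 such groups 2 did, where a rate of 1 in 20 would give about 2.9. That rate assumes 4 values from 1 population, whereas each group here spans 2 batches, so it is only a rough guide. PYCR1 had 948 CPM in siControl replicate 2, against 778 to 796 CPM in the other siControl libraries. CTH had 8.16 CPM in siNAT10 replicate 3, against 10.95 to 11.3 CPM in the other siNAT10 libraries.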

How the results depend on the processing

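The number of members called was 0 in all fits but 2: it was 1 (XPOT) with no filter on low counts and ranged from 0 to 1 when 1 library was left out (XPOT, without siControl replicate 4). The replicate block, which matches same-numbered libraries, changed no member's call, with 454 genes called over all. The genes called over all numbered 315, against 15 without the batch term, 575 with DESeq2, 595 with no filter, 173 in batch 1 alone, 0 in batch 2 alone (edgeR) and 75 to 286 with 1 library left out (75 without siNAT10 replicate 2, 104 and 132 without siControl replicates 1 and 2, 134 and 178 without siNAT10 replicates 1 and 3). The members' median log2 ratio was 0.027 in batch 1 alone, -0.11 in batch 2 alone and -0.07 to 0.0039 with 1 library left out. Leaving out 1 library moved it by less than 0.048. That yardstick is the SD, within group and batch, of the members' mean log2 CPM per library, which is a different quantity. The interaction was called for 1 gene with DESeq2, 15 with no filter and 0 to 2 with 1 library left out (2 without siControl replicate 4).

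Of 521 refits of single members, 491 kept direction and side of the threshold, 2 (both XPOT) passed it, and 28 changed sign. No member was called in the main fit, so these sign changes concern uncalled members only. In batch 1 alone the log2 fold change was 0.031 for ATF4, 0.085 for DDIT3, 0.087 for CEBPG, 0.075 for PSPH, -0.038 for SHMT2, -0.0011 for ASNS, 0.049 for CTH, -0.0066 for SLC38A2 and 0.071 for STC2. With library size alone it was 0.0066 for PSPH and 0.010 for STC2, and for ASNS it was -0.023 with the replicate block and -0.043 after thinning. With 1 library left out the ranges that crossed 0 were -0.40 to 0.10 for ATF4, -0.22 to 0.018 for DDIT3, -0.26 to 0.0039 for EIF4EBP1, -0.11 to 0.082 for PSPH, -0.44 to 0.39 for ASNS, -0.12 to 0.10 for CTH, -0.011 to 0.093 for SLC38A2 and -0.13 to 0.057 for STC2.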

Other observations

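SLC3A2 is the shared heavy chain of several amino acid exchangers, and its light chains were set beside it after their values had been seen. SLC7A5, SLC7A6, SLC7A7 and SLC7A11 had log2 fold changes of 0.34, 0.28, 0.30 and 0.39, all above 0, as had SLC3A2 (0.27), and none was called (edgeR adjusted p from 0.14 to 0.62). SLC7A8, another light chain, had 0 counts in every library. SLC7A7 was low, at 1.92 to 3.53 CPM.

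Among the tested members, the 8 with a TGATGNAA match in the promoter window had a median log2 fold change of -0.12 (from -0.44 for CHAC1 to 0.27 for SLC3A2), and the 17 with an entry and no match had 0.030. The members were chosen, and few, so no test is attached.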
